A study of Mus musculus with 6 samples.

Results

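The 10 genes described here encode proteins that neutrophils and related blood cells store in granules or use against microbes: *S100a8*, *S100a9*, *Ngp*, *Ltf*, *Camp*, *Lcn2*, *Retn*, *Elane*, *Mpo* and *Ppbp*. They were chosen by name from the 22513 entries of the gene table, with the values of the 6 libraries already known, so their own levels are given as a description with no test. Each has an entry of its own, and no other entry overlaps it. The RNA came from fetal thymus organ culture (FTOC) of C57BL/6 background, either wild type (WT) or *Jmjd6*-/-, which carries the deletion in every cell. All lobes were cultured with 2-deoxyguanosine (2-DG) for 4 days, a treatment that removes most haematopoietic cells from the stroma. Some then received RANKL for 4 days, the ligand of RANK that induces Aire in medullary thymic epithelial cells (mTECs), and the others did not. Unstimulated WT and unstimulated *Jmjd6*-/- stroma gave 1 library each, and RANKL-stimulated stroma gave 2 libraries per genotype. The labels call the repeated libraries technical duplicates, so a p-value measures only the spread between these samples, which may be technical.

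The authors deposited FPKM values, which scale fragments to transcript length and library depth. The depth, inferred from the spacing of low values, was about 14800000 to 30900000 fragments per library, and a value of 0 allows up to 3 fragments. These limits and the intervals below cover counting error only. *Jmjd6* itself had 25.9 to 32.5 FPKM in the 3 WT libraries and 1.32 to 1.96 in the 3 *Jmjd6*-/- libraries. *Aire* was at 0.142 and 0.473 FPKM without RANKL and at 67.1 to 79.7 FPKM in the 4 stimulated libraries. Of the thymic epithelial markers, *Krt8* (mean 2330 FPKM) and *Krt5* (mean 1628 FPKM) were high. WT RANKL replicate 2 stood apart from replicate 1 in many of the values below, and several results are also given without it.

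Neutrophils fill their granules in sequence during maturation. Primary granules hold myeloperoxidase (*Mpo*) and neutrophil elastase (*Elane*). Secondary granules hold lactoferrin (*Ltf*), cathelicidin (*Camp*), neutrophilic granule protein (*Ngp*) and lipocalin 2 (*Lcn2*), while S100a8 and S100a9 pair in the cytosol as calprotectin, which binds calcium and withholds zinc and manganese from microbes. Resistin (*Retn*) is best known as a hormone of mouse fat tissue, and *Ppbp* encodes a chemokine of platelet granules that attracts neutrophils through Cxcr2. Several of these genes are also transcribed in epithelia, and mTECs transcribe many genes that are otherwise restricted to other tissues. In bulk RNA, fewer cells of a type and less RNA per cell cannot be told apart.

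The bases just upstream of the transcription start are shown for 5 of the 10 genes: the 2 calprotectin subunits, *Ngp* as a gene that was high in RANKL-stimulated WT stroma, and *Ltf* and *Ppbp* as the genes that were high in *Jmjd6*-/- stroma. Each line holds the 150 bases that end at the base before the start, written 5′ to 3′ on the strand of the gene from RefSeq (GRCm38.p6), and capitals mark motif matches.
S100a8 (chr3:90668921-90669070, plus strand): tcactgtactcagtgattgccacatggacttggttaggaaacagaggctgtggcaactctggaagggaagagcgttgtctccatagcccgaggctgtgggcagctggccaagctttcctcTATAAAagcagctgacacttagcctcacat
S100a9 (chr3:90695722-90695871, minus strand): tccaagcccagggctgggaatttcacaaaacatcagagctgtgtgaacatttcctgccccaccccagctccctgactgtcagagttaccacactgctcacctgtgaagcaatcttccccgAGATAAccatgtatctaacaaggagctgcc
Ngp (chr9:110419658-110419807, plus strand): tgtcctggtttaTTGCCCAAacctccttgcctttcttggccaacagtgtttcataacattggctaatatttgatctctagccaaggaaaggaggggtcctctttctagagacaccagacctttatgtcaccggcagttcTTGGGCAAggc
Ltf (chr9:111019142-111019291, plus strand): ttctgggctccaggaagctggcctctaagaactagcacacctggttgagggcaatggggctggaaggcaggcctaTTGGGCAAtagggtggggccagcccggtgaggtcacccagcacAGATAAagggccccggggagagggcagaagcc
Ppbp (chr5:90768368-90768517, plus strand): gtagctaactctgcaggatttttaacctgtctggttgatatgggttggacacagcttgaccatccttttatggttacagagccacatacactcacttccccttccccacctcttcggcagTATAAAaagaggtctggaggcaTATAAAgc

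Over the 250 bases upstream of each of the 10 genes, 5 motifs were searched, and shares are given over 32536 distinct upstream windows of the same length. The C/EBP motif TTGCNNAA, on both strands, was found in *S100a9*, *Ngp*, *Ltf* and *Lcn2* and in 9.57% of all windows. *Ngp* held it at 2 places, 138 and 11 bases before the start. The PU.1 motif GAGGAAGT, on both strands, was found in *S100a8*, *Elane* and *Mpo* and in 2.45% of windows. The NF-kB motif GGNNTTTCC, on both strands, was found in *Retn* and in 4.93% of windows. The GATA motif AGATAA, on both strands, was found in *S100a9*, *Ltf* and *Retn* and in 9.97% of windows. The TATA motif TATAAA, searched on the strand of the gene, was found in *S100a8* and *Ppbp* and in 7.55% of windows. No match overlapped another, and a match is a description of the letters, not of a bound site. *Ngp* and *Ltf* both hold the C/EBP letters, and their levels differed in opposite directions between the genotypes (below). The part of any motif in the levels was not tested.

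*S100a8*, the highest of the 10 genes, went from below 1 FPKM without RANKL to at least 58.5 FPKM with it in both genotypes. The gene (XLOC_012391, chromosome 3, 90669071 to 90670034 of mm10) had 0.586 FPKM in WT and 0.268 FPKM in *Jmjd6*-/- stroma without RANKL, about 6 and 1 fragments. With RANKL it had 98.2 and 141 FPKM in WT and 58.5 and 65.5 FPKM in *Jmjd6*-/- stroma. The groups did not overlap, with each stimulated library far above both unstimulated ones and both *Jmjd6*-/- libraries under both from WT. The ratio of RANKL-stimulated to unstimulated stroma was 204 in WT, with a 95% counting interval from 90.7 to 540. In *Jmjd6*-/- stroma it was 231, with an interval from 54.7 to 12087 that shows how little 1 fragment fixes the starting level. Under RANKL the WT mean of 119.6 ± 30.2 FPKM (SD, n = 2) was 1.93 times the *Jmjd6*-/- mean of 62.0 ± 4.95 FPKM (SD, n = 2). That ratio was 1.58 without WT RANKL replicate 2 and 2.27 without WT RANKL replicate 1. In rank, *S100a8* moved from place 12856 of all entries in unstimulated WT to places 757 and 552 with RANKL, and from place 13923 to places 1511 and 1331 in *Jmjd6*-/- stroma.

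*S100a9*, the partner subunit, did not keep step with *S100a8*. It lies 22599 bases from *S100a8* (XLOC_012920, chromosome 3, 90692633 to 90695691). Its level was 1.34 FPKM in unstimulated WT, 10.4 and 25.5 FPKM in WT with RANKL, 7.87 FPKM in unstimulated *Jmjd6*-/- stroma, and 25.7 and 30.2 FPKM in *Jmjd6*-/- stroma with RANKL. Here the *Jmjd6*-/- libraries were the higher ones, by 5.87-fold without RANKL (counting interval 3.26 to 11.6) and by 1.56-fold with RANKL. That second ratio rests on the spread of the WT libraries: it was 2.68 without WT RANKL replicate 2 and 1.097 without replicate 1. The level with RANKL over that without was 13.4 in WT, at 7.77 and 19.0 in the single libraries, and 3.55 in *Jmjd6*-/- stroma, at 3.26 and 3.84.

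Per unit of transcript length, *S100a8* over *S100a9* without RANKL came to 0.437 in WT and 0.0341 in *Jmjd6*-/- stroma. With RANKL the ratio reached 9.43 and 5.53 in the libraries of WT stroma but 2.28 and 2.17 in those of *Jmjd6*-/- stroma. The 2 messages were therefore unequal in each library, with *S100a9* ahead in both unstimulated libraries and *S100a8* ahead in all 4 stimulated ones, and the stimulated genotypes did not overlap. Of the entries that flank the pair, *Pglyrp4*, a peptidoglycan recognition protein gene 31215 bases beyond *S100a9*, also had its higher values in *Jmjd6*-/- stroma, at 1.14 to 1.31 FPKM against 0.162 to 0.321 FPKM in WT. It was chosen after its values were seen.

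**Figure D1:**
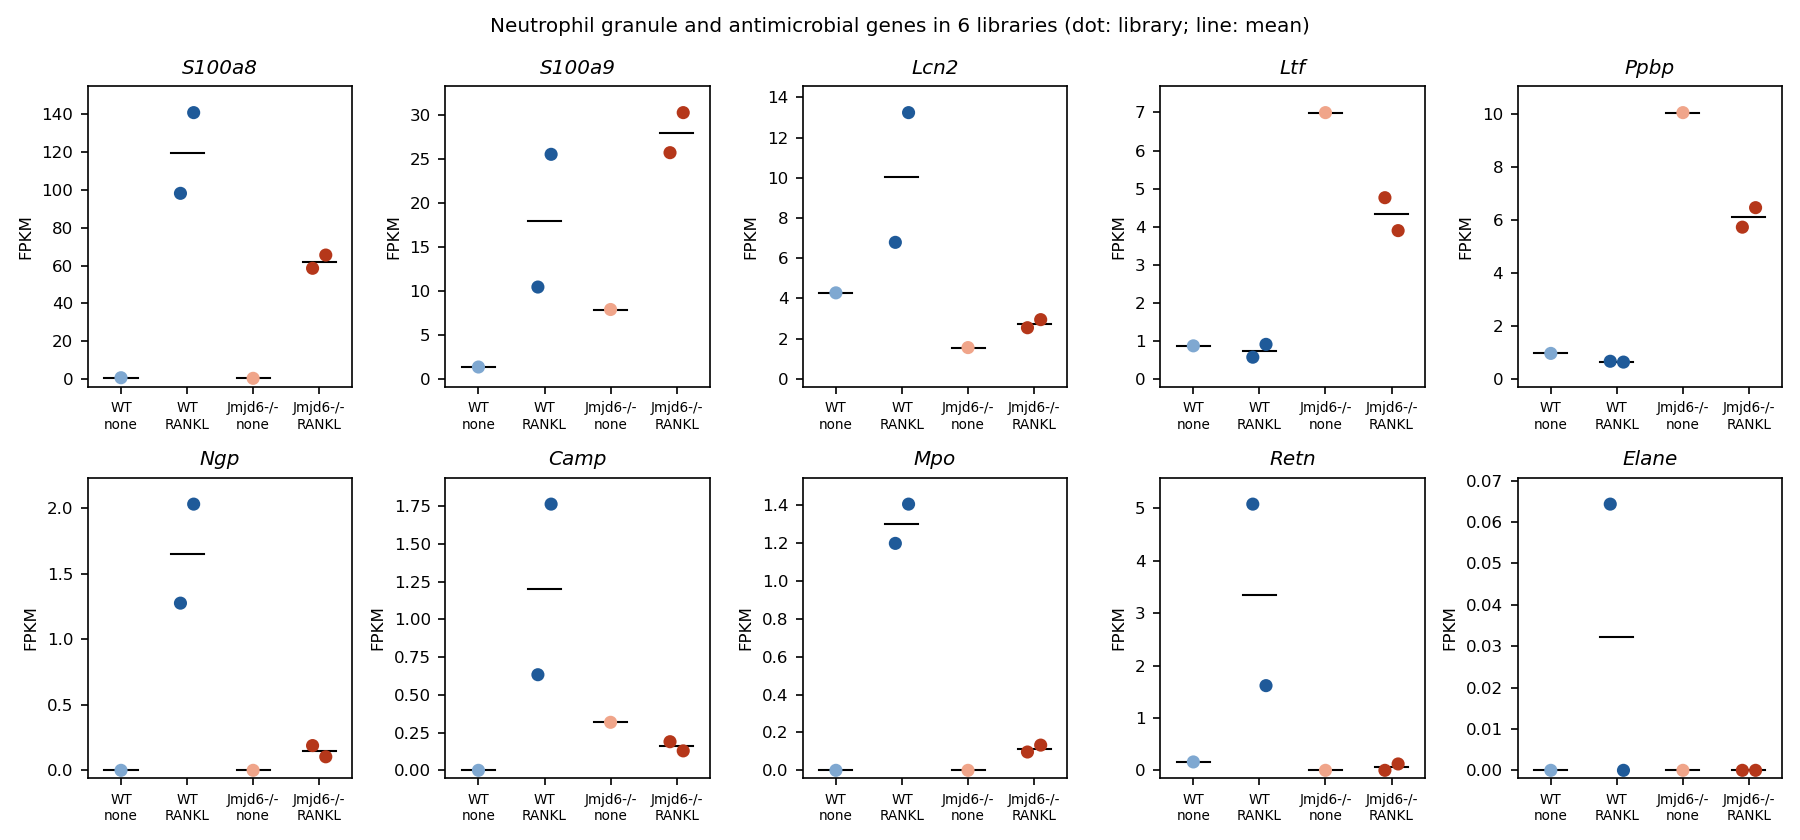
FPKM of the 10 genes in the 6 libraries, one panel per gene with its own linear axis; each dot is a library, coloured by condition, and the line is the mean of the condition. *S100a8* is near 0 without RANKL and between 58.5 and 141 FPKM with it, *Ltf* and *Ppbp* are high in all 3 *Jmjd6*-/- libraries, and *Ngp*, *Camp*, *Mpo* and *Retn* stand out in the 2 WT RANKL libraries.

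*Ngp*, *Camp*, *Mpo* and *Retn* shared a different pattern: they were at or near 0 without RANKL, between 0.634 and 5.08 FPKM in stimulated WT stroma, and below 0.2 FPKM in stimulated *Jmjd6*-/- stroma. All 4 are low, so their counting error is wide. *Ngp* (XLOC_020771, chromosome 9, 110419808 to 110423012), which encodes a cystatin-like protein of secondary granules, was listed at 0 in both unstimulated libraries. With RANKL it had 1.27 and 2.03 FPKM in WT, about 72 fragments in all, and 0.189 and 0.103 FPKM in *Jmjd6*-/- stroma, about 7 fragments. The stimulated genotypes did not overlap. In WT this is at least 18.2-fold above the limit of 3 fragments in the unstimulated library, and the stimulated WT mean was 11.3 times the *Jmjd6*-/- mean (counting interval 4.88 to 27.0).

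*Mpo* (XLOC_002817, chromosome 11, 87793784 to 87804412), the peroxidase that makes hypochlorous acid in primary granules, gave nearly the same picture. It was listed at 0 in both unstimulated libraries, at 1.20 and 1.40 FPKM in WT with RANKL and at 0.0967 and 0.133 FPKM in *Jmjd6*-/- stroma with RANKL. The 2 WT libraries were close to each other and far above the *Jmjd6*-/- ones, with a ratio of means of 11.3 (counting interval 6.41 to 21.7). With RANKL the level was at least 34.8-fold higher in WT and at least 1.47-fold higher in *Jmjd6*-/- stroma than the limit of 3 fragments. *Lpo*, the lactoperoxidase gene 2016 bases beyond *Mpo*, was higher with RANKL in both genotypes, with 22.2 and 30.5 FPKM in WT and 30.2 and 26.2 FPKM in *Jmjd6*-/- stroma against 0.877 and 1.63 FPKM without RANKL. The stimulated genotypes overlapped in *Lpo* and not in *Mpo*.

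*Camp* (XLOC_021385, chromosome 9, 109847377 to 109849456), the cathelicidin gene, was at 0 in unstimulated WT and at 0.634 and 1.76 FPKM in WT with RANKL. In *Jmjd6*-/- stroma it was at 0.318 FPKM without RANKL, about 3 fragments, and at 0.190 and 0.129 FPKM with it. The stimulated WT libraries lay above the *Jmjd6*-/- ones, but they differed between themselves by more than the *Jmjd6*-/- libraries did. The stimulated WT mean was 7.53 times the *Jmjd6*-/- mean (counting interval 2.52 to 28.6), and 3.98 times without WT RANKL replicate 2.

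*Retn* (XLOC_019136, chromosome 8, 3655770 to 3659818) varied most between the 2 WT RANKL libraries, and in the opposite sense to *Camp*. It had 0.160 FPKM in WT stroma without RANKL, 5.08 and 1.62 FPKM in WT with RANKL, 0 in unstimulated *Jmjd6*-/- stroma, and 0 and 0.122 FPKM in *Jmjd6*-/- stroma with RANKL. Both WT libraries with RANKL lay above every other library. The stimulated WT mean was 20.9 times the unstimulated value (counting interval 8.05 to 78.9), at 31.7 and 10.1 in the single libraries, and 55.0 times the *Jmjd6*-/- mean, which rests on about 2 fragments (counting interval 16.4 to 500). That ratio was 26.6 without WT RANKL replicate 1, 83.5 without WT RANKL replicate 2, and 27.5 without *Jmjd6*-/- RANKL replicate 1. *Cfd*, the adipsin gene that lies 2637 bases from *Elane* and is, like resistin, a product of fat cells, had 7.73 and 0.553 FPKM in the same 2 WT libraries and at most 0.169 FPKM in the others, with replicate 1 again the higher. It was chosen after its values were seen. The part of fat cells in the level of *Retn* was not tested.

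*Elane* (XLOC_001519, chromosome 10, 79886312 to 79888216) was at 0 in 5 libraries and at 0.0643 FPKM, about 1 fragment, in WT RANKL replicate 1. No difference between conditions was detectable at this depth. *Prtn3*, the proteinase 3 gene 3140 bases from *Elane*, had 0.251 and 0.240 FPKM in stimulated WT, 0.0660 and 0 FPKM in stimulated *Jmjd6*-/- stroma, and 0 in both unstimulated libraries.

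*Lcn2*, whose product binds the iron carriers that bacteria secrete, was detected in each library and was lower in *Jmjd6*-/- stroma with and without RANKL. The gene (XLOC_011349, chromosome 2, 32384637 to 32387739) had 4.28 FPKM in unstimulated WT and 6.79 and 13.2 FPKM with RANKL. In *Jmjd6*-/- stroma it had 1.55 FPKM without RANKL and 2.54 and 2.94 FPKM with it. The WT level was 2.75 times the *Jmjd6*-/- level without RANKL (counting interval 1.62 to 4.72) and 3.65 times with RANKL (counting interval 2.68 to 4.33). The ratio with RANKL was 2.47 without WT RANKL replicate 2 and 4.83 without WT RANKL replicate 1. RANKL-stimulated over unstimulated stroma was 2.34 in WT, at 1.59 and 3.10 in the single libraries, and 1.77 in *Jmjd6*-/- stroma.

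*Ltf* and *Ppbp* went the other way and were high in all 3 *Jmjd6*-/- libraries, RANKL or not. *Ltf* (XLOC_020784, chromosome 9, 111019292 to 111042766), which encodes the iron-binding lactoferrin, had 0.867 FPKM in unstimulated WT and 0.568 and 0.906 FPKM in WT with RANKL. In *Jmjd6*-/- stroma it had 6.996 FPKM without RANKL and 4.76 and 3.89 FPKM with it. The genotypes did not overlap in either condition. The *Jmjd6*-/- level was 8.07 times the WT level without RANKL (counting interval 6.20 to 10.7) and 5.87 times with RANKL (counting interval 4.95 to 8.10). The stimulated *Jmjd6*-/- mean was 0.619 times the unstimulated value, while the WT libraries with RANKL lay on both sides of the unstimulated one.

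*Ppbp* (XLOC_014859, chromosome 5, 90768518 to 90770060) had 0.959 FPKM in unstimulated WT and 0.662 and 0.631 FPKM in WT with RANKL. In *Jmjd6*-/- stroma it had 10.03 FPKM without RANKL and 5.72 and 6.45 FPKM with it. Both stimulated libraries lay below the unstimulated one in each genotype. The ratio was 0.674 in WT, with a counting interval from 0.375 to 1.178 that includes no change. In *Jmjd6*-/- stroma it was 0.606 (counting interval 0.484 to 0.742). *Jmjd6*-/- over WT was 10.5 without RANKL (counting interval 6.87 to 16.2) and 9.41 with RANKL (counting interval 6.21 to 14.5). *Ltf*, *Ngp* and *Camp* all lie on chromosome 9, *Ngp* 570352 bases from *Camp* and 596280 bases from *Ltf*, and yet *Ltf* had its high values in the other genotype.

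**Figure D2:**
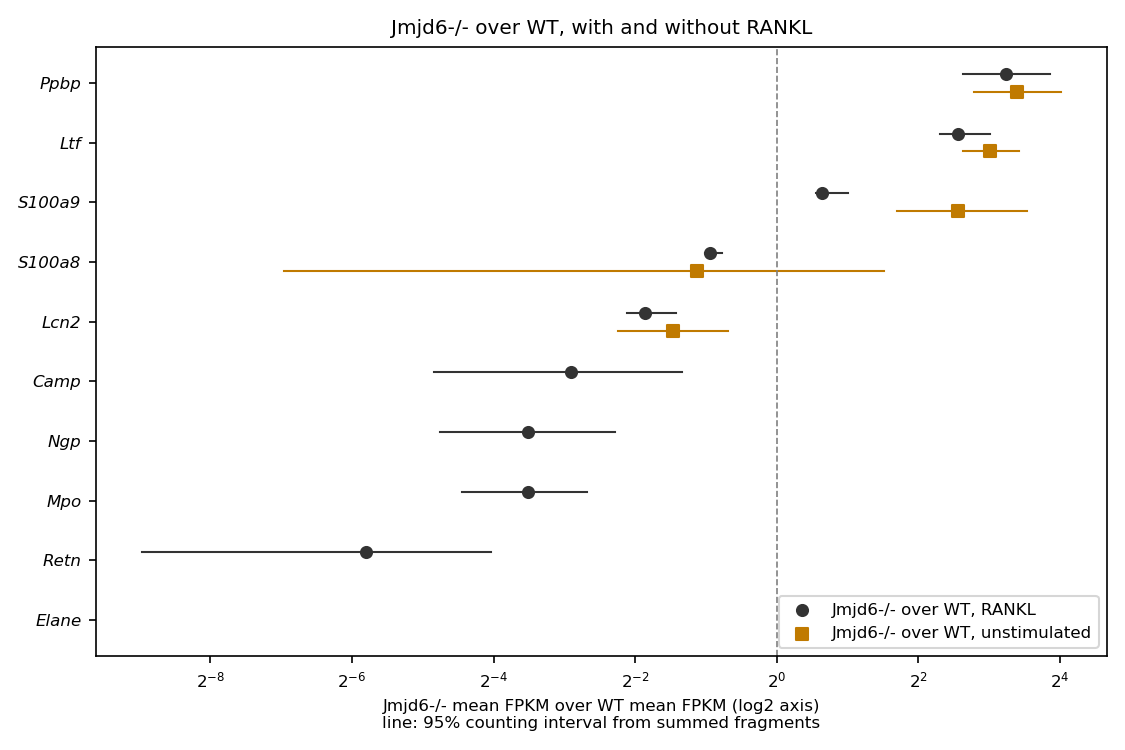
Ratio of the *Jmjd6*-/- mean to the WT mean of FPKM for each gene, on a log2 axis, with RANKL (circles) and without (squares); lines are 95% counting intervals computed from summed fragments, so that a ratio of means can lie off their centre. *Ppbp* and *Ltf* are at 9.41 and 5.87 with RANKL, and *Camp*, *Ngp*, *Mpo* and *Retn* lie between 0.133 and 0.018; ratios with a group at 0 are left out, as is *Elane*.

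Under RANKL, the *Jmjd6*-/- libraries were both lower than either WT library in 6 of the 10 genes (*S100a8*, *Ngp*, *Camp*, *Lcn2*, *Retn* and *Mpo*) and both higher in 3 (*S100a9*, *Ltf* and *Ppbp*). Over the 15894 genes whose mean reached 0.1 FPKM these orders held for 26.2% and 24.5%. All 4 stimulated libraries lay above both unstimulated ones in 4 of the 10 genes, against 18.9% of the tested genes. Of the 10 genes, 9 passed the mean of 0.1 FPKM and *Elane* did not. The same 9 had a largest value more than 3 times the smallest after adding 0.1 FPKM, which held for 14.3% of all entries, and the count was 7 with 1 added and 10 with 0.01 added. The genes were chosen with these values known, so nothing is read from these counts. Summed over the 10 genes, the level without RANKL was 8.19 FPKM in WT and 27.0 FPKM in *Jmjd6*-/- stroma, and with RANKL it was 125 and 188 FPKM in WT and 97.7 and 110 FPKM in *Jmjd6*-/- stroma. The sum mostly follows *S100a8*, which made up 78.6% and 75.0% of it in stimulated WT and 59.9% and 59.8% in stimulated *Jmjd6*-/- stroma. Without the 2 calprotectin genes, unstimulated *Jmjd6*-/- stroma had 18.9 FPKM and the stimulated libraries 13.5 to 21.6 FPKM, against 6.26 FPKM in unstimulated WT.

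Other neutrophil genes were then examined across lists of granule, surface and transcription factor genes. Of 49 such genes in the table, 34 passed the mean of 0.1 FPKM. On the scale of log2(FPKM + 0.1), limma with Benjamini-Hochberg adjustment over all tested genes called 10 of the 34 higher and 3 lower with RANKL over both genotypes. Of all genes, 10.5% were called higher and 4.11% lower. The median log2 change of the 34 was 0.50, against -0.02 over all genes. The count of 10 fell to 6 without the unstimulated WT library. The count of 3 fell to 1 without either unstimulated library and was 5 without WT RANKL replicate 2.

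Of the primary granule genes, *Serpinb1a*, an inhibitor of neutrophil proteases, rose with RANKL by 2.81 on the log2 scale (SE 0.22, adjusted p = 0.000491, limma). Its level was 1.42 and 1.79 FPKM in the unstimulated libraries and 9.26 to 15.7 FPKM in the stimulated ones. *Ctsg*, *Prtn3* and *Ms4a3* were below the mean of 0.1 FPKM. Of 14 secondary and tertiary granule genes, 7 rose and 1 fell. *Pglyrp1*, a bactericidal peptidoglycan recognition protein, had the largest rise, from 0.738 and 0.853 FPKM to 10.2 to 20.3 FPKM (3.98, SE 0.23, adjusted p = 0.000132, limma). *Chil3*, a chitinase-like protein, *Mmp8*, neutrophil collagenase, and *Slpi*, a protease inhibitor, rose by 3.16, 2.17 and 1.96 on the log2 scale. These calls were lost for *Chil3* without the unstimulated WT library (adjusted p = 0.0523, limma), for *Mmp8* without the unstimulated *Jmjd6*-/- library (adjusted p = 0.0798, limma) and for *Slpi* without either (adjusted p = 0.121 and 0.0842, limma).

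Of 12 neutrophil surface and identity genes, 2 rose and 2 fell with RANKL. *Stfa3*, a stefin, rose by 3.97 (SE 0.52, adjusted p = 0.00382, limma), a call lost without the filter on low values (adjusted p = 0.0737, limma). *Fpr1* and *Fpr2*, receptors for formylated bacterial peptides, fell by 2.61 and 1.91, and *Fpr1* lost its call without either unstimulated library (adjusted p = 0.0826 and 0.0781, limma). *Il1r2*, the decoy receptor of interleukin 1, rose by 1.56, a call lost without the unstimulated WT library (adjusted p = 0.14, limma) or without *Jmjd6*-/- RANKL replicate 1 (adjusted p = 0.0536, limma). Single genes of the neutrophil lists differed widely in level. Some were near 0: *Ctsg* had at most 0.0457 FPKM, *Cebpe* at most 0.0808 FPKM and *Retnlg* at most 0.142 FPKM. Others were higher, among them *Clec4d* at 4.22 to 8.62 FPKM and *Stfa3* at 0.492 to 19.9 FPKM. Of the secondary and tertiary granule genes, *Cyba* was at 26.5 to 138 FPKM and *Lyz2* at 285 to 346 FPKM. *Csf3r*, the receptor of the granulocyte growth factor, ran from 0.465 to 1.35 FPKM, and *Ly6g* was not matched. The summed level of the surface and identity list was 19.4 and 18.0 FPKM without RANKL, 25.03 and 39.8 FPKM in stimulated WT, and 36.6 and 33.5 FPKM in stimulated *Jmjd6*-/- stroma. The part of neutrophils in the levels of the 10 genes was not tested. Of 6 granulocyte transcription factors, none was called with RANKL by limma, against 1 lower at an unadjusted p under 0.05. *Cebpa*, which drives early granulocyte commitment, had the highest level, at 45.8 to 84.9 FPKM.

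Between the stimulated genotypes, 2 of the 34 neutrophil genes were called lower in *Jmjd6*-/- stroma and 0 higher, with 8 lower and 6 higher at an unadjusted p under 0.05 in limma. Of all genes, 1.82% were called lower and 0.516% higher. *Hp*, haptoglobin, had 3.10 and 2.90 FPKM in stimulated WT and 0.386 and 0.628 FPKM in stimulated *Jmjd6*-/- stroma, a log2 change of -2.38 (SE 0.28, adjusted p = 0.0282, limma). *Mmp9*, the gelatinase of tertiary granules, had 48.3 and 54.1 FPKM in WT and 23.7 and 24.7 FPKM in *Jmjd6*-/- stroma, a log2 change of -1.07 (SE 0.12, adjusted p = 0.028, limma). *Hp* lost its call without WT RANKL replicate 2 (adjusted p = 0.0577, limma) or *Jmjd6*-/- RANKL replicate 1 (adjusted p = 0.0641, limma), and *Mmp9* without either *Jmjd6*-/- RANKL library (adjusted p = 0.127 and 0.129, limma), and both without the filter on low values (adjusted p = 0.186 and 0.15). Without WT RANKL replicate 1 the counts were 10 lower and 4 higher, without WT RANKL replicate 2 they were 1 lower and 1 higher, and without *Jmjd6*-/- RANKL replicate 1 or 2 they were 0 and 1 lower. The difference in the response to RANKL between the genotypes was called by limma in 0 of the 34 genes and in 0% of all genes in each direction. At an unadjusted p under 0.05, 4 of the 34 genes had a smaller response in *Jmjd6*-/- stroma and 0 a larger one, against 546 and 118 of all genes. The unstimulated conditions had 1 library each.

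**Figure D3:**
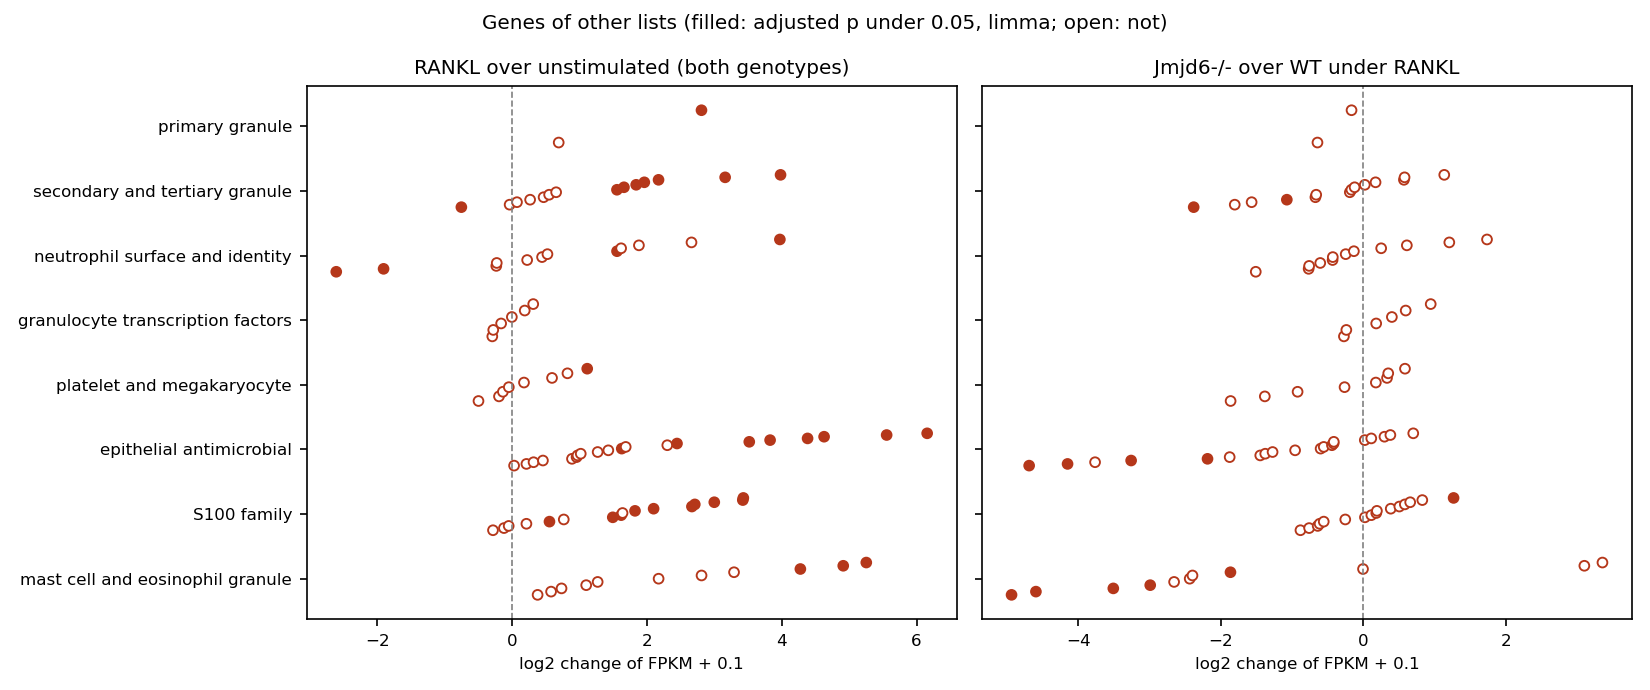
Log2 change of FPKM + 0.1 for the genes of 8 lists, with RANKL over both genotypes (left) and between the stimulated genotypes (right); each point is a gene, filled where limma gave an adjusted p under 0.05. Most called genes of the antimicrobial, S100 and granule lists lie to the right with RANKL, and between genotypes the filled points are mostly to the left.

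Of 16 other genes tested on the S100 list, 10 were called higher with RANKL and 0 lower by limma, also with 0 lower at an unadjusted p under 0.05. The list holds *S100pbp*, which encodes a binding partner of an S100 protein and is not itself an S100 gene. It was not called. *S100a3*, *S100g* and *S100a4* rose by 3.43, 3.42 and 3.00 on the log2 scale, with adjusted p of 0.000542, 0.000354 and 0.000322 from limma. *S100a4*, which encodes metastasin, had 4.17 FPKM in unstimulated WT, 21.7 and 31.4 FPKM with RANKL, 5.95 FPKM in unstimulated *Jmjd6*-/- stroma, and 60.2 and 65.7 FPKM with RANKL. It was the one S100 gene called between the stimulated genotypes, higher in *Jmjd6*-/- stroma by 1.27 (SE 0.20, adjusted p = 0.047, limma). The call was lost in 7 of 13 alternatives, among them those without *Jmjd6*-/- RANKL replicate 1 or 2 (adjusted p = 0.0952 and 0.162, limma), and over those 7 the adjusted p ran from 0.0537 to 0.22. On the other side of *S100a8*, the nearest entry is *S100a7a*, 10941 bases away. It had 0.300 and 0.805 FPKM without RANKL and 0.469 to 0.776 FPKM with it, and was not called (adjusted p = 0.758, limma). *S100a6*, farther out at 54657 bases, had 19.4 and 16.5 FPKM without RANKL and 39.5 to 79.3 FPKM with it.

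Antimicrobial genes of epithelia formed a further list. Of 20 tested, 8 were called higher with RANKL by limma. *Wfdc21* rose by 6.16 (SE 0.28, adjusted p = 6.44e-05, limma), from 0.914 and 1.70 FPKM to between 60.4 and 125 FPKM. *Chil4*, *Itln1* and *Lpo* rose by 5.56, 4.63 and 4.38, each called under every alternative. Between the stimulated genotypes 4 were called lower in *Jmjd6*-/- stroma, and 0 higher, also 0 at an unadjusted p under 0.05. These were *Reg3b* (-4.69, SE 0.57, adjusted p = 0.0288), *Saa2* (-4.15, SE 0.61, adjusted p = 0.0406), *Saa3* (-3.26, SE 0.23, adjusted p = 0.026) and *Reg3g* (-2.19, SE 0.27, adjusted p = 0.0284), all from limma. *Reg3b* and *Reg3g* encode lectins that kill gut bacteria, and *Saa2* and *Saa3* encode serum amyloid proteins. *Reg3g* had 99.03 and 173 FPKM in stimulated WT and 28.2 and 29.1 FPKM in stimulated *Jmjd6*-/- stroma, against 5.89 and 3.02 FPKM without RANKL. *Reg3b* lost its call without WT RANKL replicate 2 (adjusted p = 0.0517, limma), *Saa2* with 1 added to FPKM (log2 change -1.48, adjusted p = 0.112) or without the trend (adjusted p = 0.0567), and *Reg3g* without the trend (adjusted p = 0.0527). All 4 lost it without the filter on low values (adjusted p from 0.156 to 0.218).

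The CXC chemokine genes around *Ppbp* differed among themselves. *Pf4*, 2375 bases from *Ppbp* and likewise stored in platelets, had 2.76 FPKM in WT before stimulation, 5.12 and 13.97 FPKM with RANKL, 3.05 FPKM in unstimulated *Jmjd6*-/- stroma, and 3.66 and 2.77 FPKM with RANKL. Its highest values were thus in WT, while those of *Ppbp* were in *Jmjd6*-/- stroma. *Cxcl5*, 6893 bases away on the other side, had 14.8 and 5.79 FPKM without RANKL in WT and *Jmjd6*-/- stroma and 8.66 to 16.8 FPKM with RANKL. *Cxcl3* rose with RANKL by 2.32 (SE 0.20, adjusted p = 0.00075, limma) and was higher in stimulated *Jmjd6*-/- stroma by 1.87 (SE 0.20, adjusted p = 0.028, limma), with 13.4 and 14.8 FPKM against 3.32 and 4.31 FPKM in WT. Without RANKL it had 2.16 FPKM in *Jmjd6*-/- and 0.884 FPKM in WT stroma. The call between genotypes was lost without *Jmjd6*-/- RANKL replicate 1 or 2 (adjusted p = 0.0586 and 0.0939, limma) and without the filter (adjusted p = 0.169). *Cxcl2* rose with RANKL by 1.498 (SE 0.35, adjusted p = 0.0355, limma), a call that was lost without any 1 of the unstimulated or *Jmjd6*-/- RANKL libraries, with adjusted p up to 0.284. Of the platelet and megakaryocyte list, 1 of 8 was called with RANKL, the integrin gene *Itgb3* (1.11, SE 0.22, adjusted p = 0.0179, limma), a call lost without any 1 of the same 4 libraries (adjusted p from 0.072 to 0.167). By genotype under RANKL, limma called 0 of the 8, with 2 lower and 0 higher at an unadjusted p under 0.05. Its summed level was 17.5 and 21.1 FPKM without RANKL, 16.9 and 31.2 FPKM in stimulated WT, and 21.2 and 19.6 FPKM in stimulated *Jmjd6*-/- stroma. Of its single markers, *Gp1bb* (an entry shared with *Sept5*) had 8.97 to 10.3 FPKM in the *Jmjd6*-/- libraries and 4.50 to 7.95 FPKM in the WT libraries, *Itga2b* had 0.453 to 0.591 and 0.261 to 0.553 FPKM, and *Gp9* was at 0 and 0.0602 to 0.469 FPKM. The part of platelets in the level of *Ppbp* was not tested.

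Among 9 genes for receptors and partners of the products, 3 were called lower with RANKL and 0 higher by limma, with 1 higher at an unadjusted p under 0.05. *Fpr2* is given above. *Lrp2*, the megalin gene that takes up lipocalin 2 and lactoferrin, fell by 1.24 (SE 0.22, adjusted p = 0.0117, limma), and *Slc22a17*, a lipocalin 2 receptor, fell by 0.52 (SE 0.12, adjusted p = 0.0303, limma). Both calls were lost without *Jmjd6*-/- RANKL replicate 1 or either unstimulated library, and that of *Lrp2* also without *Jmjd6*-/- RANKL replicate 2 (adjusted p from 0.0557 to 0.374). Of the 9, 0 were called between the stimulated genotypes by limma, with 1 higher and 1 lower at an unadjusted p under 0.05. *Cxcr2*, the receptor of Ppbp, was at 0.212 to 0.622 FPKM. Of the resistin family, *Retnla* was at 0 in both unstimulated libraries, at 1.13 and 2.16 FPKM in stimulated WT and at 0.273 and 0 FPKM in stimulated *Jmjd6*-/- stroma. It was not called with RANKL (2.50, SE 0.82, adjusted p = 0.0944, limma) or between the stimulated genotypes (-3.11, SE 0.70, adjusted p = 0.0884, limma).

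Markers of other cells that could hold granules were set beside the 10 genes. Of 11 mast cell and eosinophil granule genes tested, 3 were called higher with RANKL, namely *Ear2* (5.25), *Ear1* (4.91) and *Prg2* (4.28). *Ear2* shares its entry with *Ear3* and has near-identical relatives, so its reads may be split among them, and *Ear1* and *Ear2* lost their calls without the unstimulated *Jmjd6*-/- library (adjusted p = 0.0807 and 0.104, limma). Between the stimulated genotypes 5 were called lower in *Jmjd6*-/- stroma and 0 higher, with 2 higher at an unadjusted p under 0.05 in limma. The mast cell proteases *Mcpt1* (-4.94, SE 0.52, adjusted p = 0.028), *Mcpt2* (-4.60, SE 0.51, adjusted p = 0.028), *Mcpt4* (-3.51, SE 0.48, adjusted p = 0.036) and *Cma1* (-2.99, SE 0.36, adjusted p = 0.0284) led, all from limma. *Mcpt1* had 8.56 and 4.38 FPKM in stimulated WT and 0.0370 and 0.201 FPKM in stimulated *Jmjd6*-/- stroma. In *Mcpt1*, *Mcpt2*, *Mcpt4* and *Cma1*, as in *Retn* and *Cfd*, WT RANKL replicate 1 was above replicate 2, whereas *S100a8*, *S100a9*, *Ngp*, *Camp*, *Mpo* and *Lcn2* were higher in replicate 2. *Mcpt1* lost its call without WT RANKL replicate 2 (adjusted p = 0.052, limma), and *Mcpt4* and *Cma1* lost theirs without *Jmjd6*-/- RANKL replicate 2 (adjusted p = 0.055 for each, limma). With 1 added to FPKM *Mcpt2* and *Mcpt4* lost theirs (adjusted p = 0.0523 and 0.0692), as *Mcpt4* did with 0.01 added (adjusted p = 0.0649), and without the filter all 4 proteases did (adjusted p from 0.157 to 0.203). The summed level of the list was 5.21 and 2.36 FPKM without RANKL, 34.6 and 37.7 FPKM in stimulated WT, and 82.8 and 70.0 FPKM in stimulated *Jmjd6*-/- stroma, where *Ear1* and *Ear2* were at 21.0 to 51.5 FPKM. The part of mast cells and eosinophils in the levels of the 10 genes was not tested.

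Leukocyte genes were detected in all libraries after 2-DG. *Ptprc*, which encodes CD45, had 6.81 and 6.74 FPKM without RANKL and 2.89 to 3.56 FPKM with it (log2 change -1.001, SE 0.14, adjusted p = 0.00547, limma). Its call was lost without either unstimulated library (adjusted p = 0.0837 and 0.0773, limma). It was the 1 gene called of 8 on the leukocyte list. Of 9 macrophage genes, *Mrc1* and *Cd14* were called higher and *Marco*, *Emr1* and *Csf1r* lower with RANKL. *Mrc1*, the mannose receptor, rose by 1.48 (SE 0.12, adjusted p = 0.000563, limma) under every alternative. *Cd14* and *Marco* lost their calls without any 1 of the unstimulated or *Jmjd6*-/- RANKL libraries and *Emr1* without either unstimulated library (adjusted p from 0.0525 to 0.286, limma). The summed level of the macrophage list ran from 312 to 500 FPKM, with both extremes in stimulated WT, and that of the T cell list from 1.09 to 3.66 FPKM. By genotype, limma called under RANKL 0 of the 8 leukocyte, 9 macrophage and 3 T cell genes tested, with 3, 1 and 1 lower and 0 higher at an unadjusted p under 0.05. *Lck* was the T cell gene called with RANKL (1.12, SE 0.23, adjusted p = 0.0226, limma), a call lost without the unstimulated WT library or either *Jmjd6*-/- RANKL library (adjusted p up to 0.258). The part of these cells in the levels of the 10 genes was not tested. Of 11 thymic epithelial genes, 5 were called higher with RANKL, led by *Aire* (7.65), *Cd80* (3.45), *Tnfrsf11a*, the RANK gene (2.70), and *Krt14* (2.49), each under every alternative, and 0 were called between the stimulated genotypes by limma, with 4 higher and 0 lower at an unadjusted p under 0.05.

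**Figure D4:**
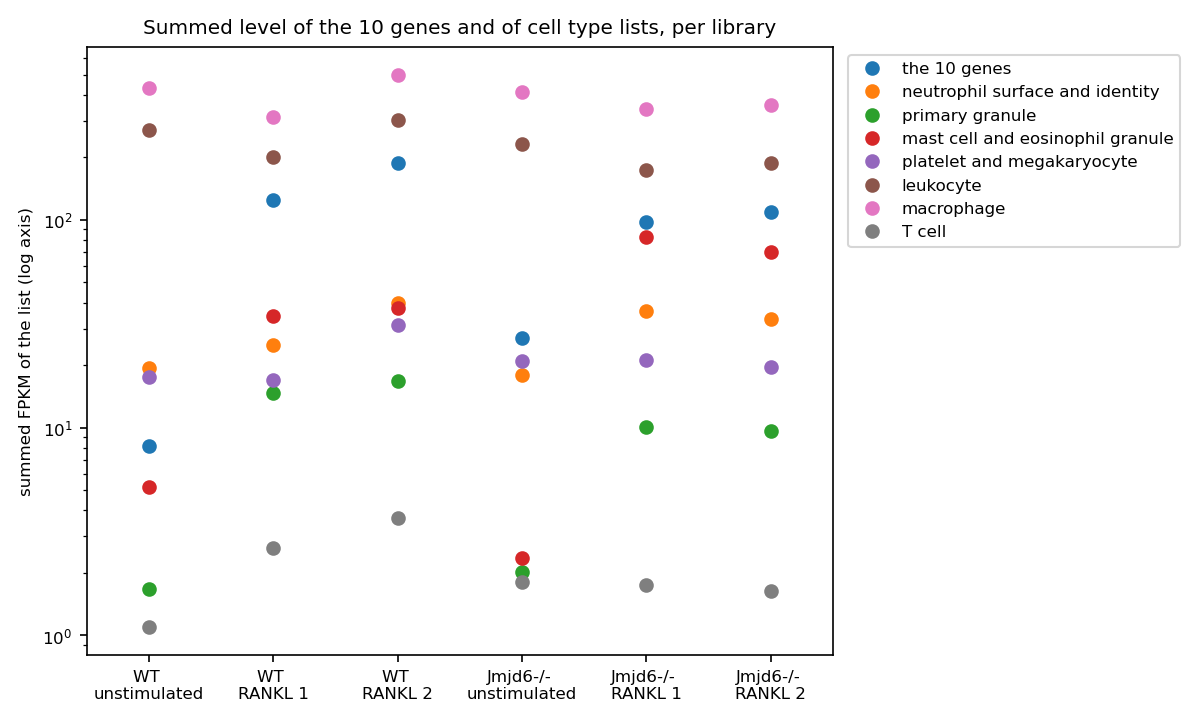
Summed FPKM of the 10 genes and of 7 lists of cell markers in each of the 6 libraries, on a log axis. The 10 genes go from 8.19 and 27.0 FPKM without RANKL to 97.7 to 188 FPKM with it. The sum of the mast cell and eosinophil list is highest in stimulated *Jmjd6*-/- stroma, where most of it is *Ear1* and *Ear2*. Of the 11 tested genes of that list, 5 were called lower in stimulated *Jmjd6*-/- than in stimulated WT stroma and 0 higher. The macrophage and leukocyte sums differ less between libraries.

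For 3 of the 10 genes, the genes most like them over the 6 libraries were picked by Pearson's r of log2(FPKM + 0.1) among genes whose mean reached 1 FPKM. With so few libraries in 4 conditions, many genes reach a high r, so these are a description with no p. Closest to *S100a8* were *Cdx1*, an intestinal homeobox gene (r = 0.9991), *Fezf2*, a transcription factor of mTECs (r = 0.9983), and *Il13*, which encodes a cytokine (r = 0.9976). *Cdx1* had 0.15 and 0.0590 FPKM without RANKL, 23.5 and 28.5 FPKM in stimulated WT and 13.99 and 12.2 FPKM in stimulated *Jmjd6*-/- stroma. Closest to *Ngp* were *Lypd8* (r = 0.9967), *2210407C18Rik* (r = 0.995) and *Aqp1*, a water channel gene (r = 0.9945). *Lypd8*, which encodes an antibacterial protein of the colon, was at 0 without RANKL, at 4.33 and 5.78 FPKM in stimulated WT and at 0.436 and 0.229 FPKM in stimulated *Jmjd6*-/- stroma. Closest to *Ppbp* were *Prmt6*, an arginine methyltransferase gene (r = 0.9976), *2310002J15Rik* (r = 0.9956) and *Ephx1*, an epoxide hydrolase gene (r = 0.9942). *Ephx1* had 14.2 to 14.5 FPKM in the 3 WT libraries and 23.9 to 26.2 FPKM in the 3 *Jmjd6*-/- libraries. The 3 patterns were thus a higher level with RANKL in both genotypes for *S100a8*, a level above 1 FPKM in stimulated WT alone for *Ngp*, and a higher level in *Jmjd6*-/- stroma with and without RANKL for *Ppbp*.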

How the data were processed

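RNA of 6 FTOC libraries had been purified with poly-T beads and prepared with a TruSeq RNA kit. Per the submitters' processing notes, reads were mapped to mm10 with TopHat2 2.0.10, and the authors deposited FPKM per gene from Cufflinks 2.1.1, with multi-read correction and a second-strand library type. No strand-keeping step is named for the kit, so genes opposite each other may not be separated. Groups were taken from titles and the stimulation label, since the treatment label gives RANKL for all samples. The deposited FPKM values were used as they were. Depth was estimated from the steps between values under 0.15 FPKM and the transcript length less 150 bases, and is approximate. Fragments per gene follow from it, with exact 95% intervals for ratios.

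Tests across genes used limma 3.58.1 (R 4.3.3) on log2(FPKM + 0.1) for genes whose mean reached 0.1 FPKM. The fits used a trend of the variance on the mean and Benjamini-Hochberg adjustment at 0.05, and were tested on simulated data. The effect of RANKL was fitted with genotype as a term. Genotypes under RANKL, and the difference in response, came from a fit of 4 condition means. An exact permutation test cannot give a two-sided p under 0.333 for 2 against 2 libraries or 0.0667 for 4 against 2. The 10 genes and all lists were chosen with earlier results of these data known. Of 160 list genes, 158 matched, 6 of them by older symbols, a step added after seeing the data. Genes were named by a rule, and not every uncalled gene that it picked is described, for example *Prss57*, *Gp5* and *Bpifa1*. The rule took the 10 genes, *Jmjd6* and *Aire*, and the 3 most alike genes of *S100a8*, *Ngp* and *Ppbp*. Per list and comparison it took up to 4 called genes with the largest change, or otherwise up to 2 with the highest mean. Genes named beside them as neighbours, as single markers, or for their own family or levels (*Ctsg*, *Ms4a3*, *Cebpe*, *Retnlg*, *Csf3r*, *Cxcr2*, *Gp1bb*, *Itga2b*, *Gp9*, *Pf4*, *Cxcl5*, *S100a6*, *S100a7a*, *S100pbp*, *Csf1r*) were chosen after their values were seen. Alternatives were another added constant, another filter, no trend, 2 scalings, a replicate block, a fit restricted to the 4 RANKL libraries, and leaving out each library.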

Additional observations from a re-analysis of the deposited data

Results flagged for a closer look

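These 2 results stood out because every stimulated WT library moved one way from the unstimulated library and every stimulated *Jmjd6*-/- library moved the other way. For *Camp* the change with RANKL on the log2(FPKM + 0.1) scale was 3.55 in WT and -0.7 in *Jmjd6*-/- stroma. The difference was not tested for *Camp*, and its *Jmjd6*-/- value rests on about 3 fragments without RANKL and about 4 with it. For *Hp*, haptoglobin, the change was 1.18 in WT and -1.25 in *Jmjd6*-/- stroma. The test of this difference itself did not pass (log2 difference -2.43, SE 0.48, adjusted p = 0.712, limma), with 1 unstimulated library per genotype.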

How the results depend on the processing

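With RANKL, 1675 genes were called higher and 654 lower. Without the filter on low values the counts were 788 and 299, and 4 and 1 in place of 10 and 3 for the neutrophil lists. The lower count was 398 without the trend and 315 with the replicate block. Leaving out a library gave 623 to 2165 higher and 54 to 1478 lower genes, and 6 to 14 and 1 to 5 in the neutrophil lists, with the fewest without the unstimulated WT library and the most lower genes without WT RANKL replicate 2. Between the stimulated genotypes, 82 genes were called higher and 290 lower. Without the filter these counts were 1 and 1, with 0 neutrophil genes lower. The lower count was 180 with 0.01 added and 172 with a filter at 1 FPKM. Leaving out a library gave 20 to 2254 higher and 68 to 1737 lower, and 0 to 4 and 0 to 10 neutrophil genes, with the most without WT RANKL replicate 1. The replicate numbers share only a number, since the differences between replicates correlated at -0.078 across genotypes. With the replicate block, 396 genes were higher and 1081 lower, with 5 and 4 neutrophil genes. The difference in response went from 0 and 0 calls to 93 higher and 83 lower without the filter, and to 27 and 67 with the block, 1 of them in the neutrophil lists. Leaving out a library gave 0 to 4 and 0 to 1. The rule on the range passed 855 entries with 1 added and 6614 with 0.01 added, in place of 3212, and 7 and 10 of the 10 genes in place of 9, which was the count under the other alternatives run. In 3 of the 10 genes *Jmjd6*-/- stroma had the higher mean under each alternative. Leaving out a library leaves some conditions with 1 library, which the fit takes to vary like the others. No called value of the report that was followed over the alternatives changed sign, and sign changes of uncalled values were not counted. Of the *Jmjd6*-/- over WT ratios of the 10 genes, 43 stayed within the spread between libraries and 10 moved beyond it. Of the tested values of genes picked by the naming rule, 1146 kept their status under the alternatives, whether called or not called. A call was lost in 99 and gained in 21, and the cause was not tested. Depth limits *Elane*, *Camp*, *Ngp*, *Retn* and *Mpo*, which have 13 fragments or fewer in stimulated *Jmjd6*-/- stroma.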
